A study of Rattus norvegicus with 22 samples.

Results

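The matrix proteases and protease inhibitors of the rat calcaneal tendon (CT) were 4 of the 22 genes measured by qRT-PCR, namely the proteases MMP-2 and ADAMTS-4 and the inhibitors TIMP-1 and TIMP-2. They were chosen by name, as the genes of the panel that encode a protease of the extracellular matrix or an inhibitor of such proteases, and not by their values. The animals were male Wistar rats, 4 months old, whose gastrocnemius muscle was exposed and injured by freezing with an iron bar. The tendon itself was not injured, and it was taken 3 days (3D, n = 5), 14 days (14D, n = 6) or 28 days (28D, n = 6) after the lesion, or from animals without a lesion (C, n = 5). RNA came from whole tendon, so that fewer cells of a type and less RNA per cell cannot be told apart. The comparisons address how the mRNA of enzymes and inhibitors in the tendon stood over the weeks in which the muscle regenerates.

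MMP-2 is a gelatinase, secreted as an inactive zymogen, that cleaves denatured collagen and other matrix proteins. TIMP-2 blocks active MMP-2, yet it also binds the zymogen and links it to a membrane-bound protease that activates it, so that TIMP-2 can act on either side. TIMP-1 inhibits most secreted metalloproteinases and is a gene that inflammatory and growth signals induce in many cell types. ADAMTS-4 is an aggrecanase, which cuts large proteoglycans such as aggrecan and versican, and its main known inhibitor in the TIMP family is TIMP-3, which the panel does not hold. Tendon fibroblasts make all of these proteins, and the ratio of enzyme to inhibitor is commonly used to describe matrix turnover.

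Every value is a cycle threshold (Ct), which counts the cycles of amplification needed before the signal of the probe crosses a fixed line, and a later Ct stands for less mRNA. Log2 expression was the Ct of the reference gene RPLP0, a ribosomal protein, minus the Ct of the gene, with the mean of C set to 0, and a difference of 1 is 2-fold if the product doubles in each cycle. Of the 88 values of the 4 genes, 5 equalled the average of their group mates to within 1e-06 and were left out as filled in, namely TIMP-2 and MMP-2 in replicate 4 of C, MMP-2 in replicate 3 of 3D, and ADAMTS-4 and TIMP-1 in replicate 1 of C. The other 83 were used, 5 of them with a Ct above 35, where a Ct is less precise. These were TIMP-2, ADAMTS-4 and TIMP-1 in replicate 2 of 3D, ADAMTS-4 in replicate 4 of C and TIMP-1 in replicate 5 of 28D. No gene was dropped for a low level. Group means were compared with limma in one model of the 22 genes, adjusted over 132 tests, and those with an limma adjusted p under 0.05 are said to have passed. The exact p given beside it is two-sided, unadjusted, and comes from permuting the rats of the pair of groups.

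Over all 22 animals the genes that mark tendon cells were amplified in every animal in which they were measured, with a median Ct of 23.8 for TNMD, 28.8 for SCX, 28.3 for MKX and 27.3 for COL1A1, and the panel holds no gene that is specific for muscle, immune or fat cells. RPLP0 ranged from a Ct of 26.1 to 32.3 and its mean in 28D was 1.72 cycles above that in 14D (exact p = 0.0303). Its latest Ct, 32.3, was in replicate 2 of 3D, the animal with the lowest TIMP-2 and MMP-2. In replicate 5 of 3D the deposited values of TIMP-1 and ADAMTS-4 were normalized with 28.5, the average RPLP0 Ct of its group mates, although its own was 27.1, while TIMP-2 and MMP-2 use its own. Replicates 3 and 4 of 28D also stood apart. Replicate 3 had a Ct 3.83 cycles earlier for TIMP-1 and 2.47 cycles earlier for ADAMTS-4 than replicate 4. It was 2.99 cycles later for MMP-2 and 2.80 cycles later for TIMP-2. Of the 22 genes 18 were later and 4 earlier in replicate 3, the 4 being TIMP-1, TNC, ADAMTS-4 and ERG1 (gene symbol Egr1). Where replicate 5 of 3D or replicate 3 of 28D moved a value of TIMP-1 or ADAMTS-4 most, it is also given without them.

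The 4 genes fell into a quiet pair and a variable pair. Within groups the SD of log2 expression, pooled over the 4 groups, was 0.37 for MMP-2 and 0.56 for TIMP-2, the smallest and the next smallest of the 22 genes. For ADAMTS-4 it was 1.31, rank 5 from the top, and for TIMP-1 it was 2.11, the largest of the panel. Without replicate 5 of 3D and replicate 3 of 28D the SD of TIMP-1 was 1.03, rank 5 from the top behind COL3A1 at 1.42, and that of ADAMTS-4 was 1.15, rank 3, while MMP-2 at 0.39 and TIMP-2 at 0.56 remained the smallest and the next smallest. The position of the 2 pairs in this order is a description of these animals.

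**Figure D1:**
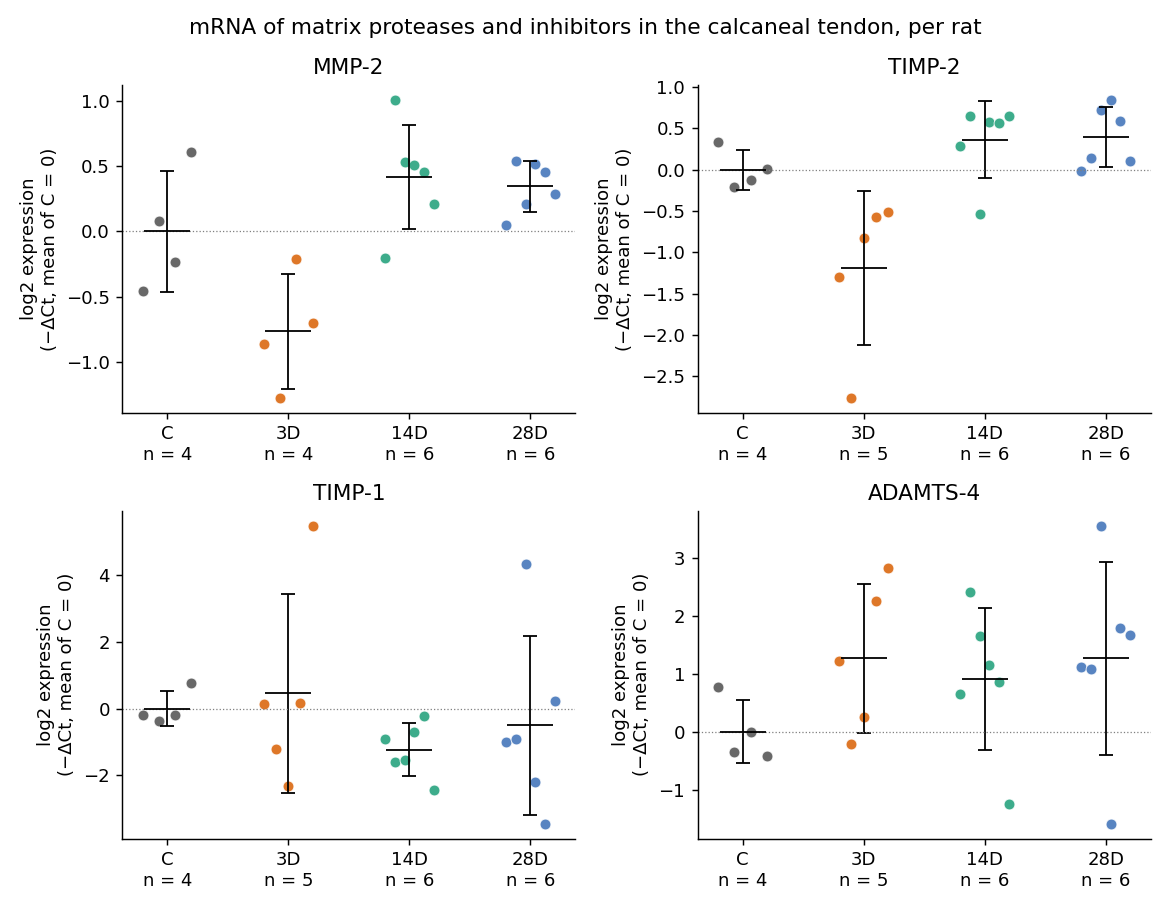
Log2 expression of MMP-2, TIMP-2, TIMP-1 and ADAMTS-4 in each rat, with the mean of C at 0 (points, 1 rat each; bars, mean ± SD; vertical scales differ between panels). MMP-2 and TIMP-2 were lowest in 3D and had pooled SDs of 0.37 and 0.56, while TIMP-1 reached from -3.44 to 5.47 and ADAMTS-4 from -1.59 to 3.56.

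MMP-2 lay on chromosome 19 (30327643 to 30355856 in the GRCr8 assembly). Its log2 expression in C was -0.46, 0.08, -0.23 and 0.61 in replicates 1, 2, 3 and 5. In 3D it was -0.86, -1.27, -0.21 and -0.70 in replicates 1, 2, 4 and 5. In 14D it ran from -0.20 through a median of 0.48 to 1.01, and in 28D from 0.05 through 0.37 to 0.54. All 12 animals of 14D and 28D thus lay above the 4 of 3D, while each of these groups overlapped C.

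MMP-2 mRNA in 14D was 2.26 times that of 3D (1.18 in log2, SE 0.34, 6 and 4 rats, limma adjusted p = 0.0291) and in 28D 2.15 times (1.11, SE 0.34, 6 and 4 rats, limma adjusted p = 0.0403), each with an exact p of 0.00476, the smallest that 6 and 4 rats allow. Both rises rest on the same 4 animals of 3D. The first was one of 6 genes of 22 (27.3%) that passed between 14D and 3D, and the second one of 7 (31.8%) between 28D and 3D. Non-overlap was found for 13.6% of the genes in the former and 27.3% in the latter. Since the median gene stood 0.71 higher in 14D and 1.07 higher in 28D than in 3D, MMP-2 lay 0.47 above that median in 14D and 0.04 above it in 28D. When the average Ct of the target genes served as reference the differences were 0.49 (limma adjusted p = 0.389) and 0.12 (limma adjusted p = 0.812). On Ct without any reference, taken as minus Ct so that higher is more mRNA, they were 2.77 and 0.97 cycles (limma adjusted p = 0.254 and 0.653). Neither rise passed in these settings.

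Against C the mean of MMP-2 differed by -0.76 in 3D (SE 0.37, 4 and 4 rats, limma adjusted p = 0.239, or -0.14 with the target genes' average as reference), by 0.42 in 14D (SE 0.34, 6 and 4 rats, limma adjusted p = 0.506) and by 0.34 in 28D (SE 0.34, 6 and 4 rats, limma adjusted p = 0.593). None of these passed. The 95% interval of the 28D difference was -0.36 to 1.05, so that a 2-fold rise was not excluded by its error. Between 28D and 14D the difference was -0.07 (95% interval -0.70 to 0.56). The rises from 3D were close to the threshold, and leaving out 1 animal at a time they no longer passed in 7 of 22 cases for 14D and in 13 of 22 for 28D, with log2 differences that stayed between 1.01 and 1.36 and between 0.94 and 1.29. Replicates 1, 2 and 5 of 3D were among these animals in both, with limma adjusted p = 0.10, 0.0693 and 0.0562 for 14D and 0.105, 0.0876 and 0.0660 for 28D. The others were replicates 2, 4 and 5 of 14D and replicate 5 of 28D in the former (limma adjusted p from 0.0508 to 0.0564), and replicates 2 and 3 of C, 4 to 6 of 14D and 2 to 6 of 28D in the latter (limma adjusted p from 0.050 to 0.0782).

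TIMP-2, the inhibitor that also takes part in the activation of MMP-2, lay on chromosome 10 (104041604 to 104089214). Log2 expression in C was 0.34, -0.21, -0.13 and 0.01 in replicates 1, 2, 3 and 5. All 5 animals of 3D lay lower, at -1.30, -2.76, -0.83, -0.57 and -0.51 in replicates 1 to 5. In 14D it ran from -0.54 through a median of 0.57 to 0.65, and in 28D from -0.01 through 0.36 to 0.84. Replicate 3 of 14D, at -0.54, was the only animal of the 2 later groups that overlapped 3D, and the other 5 of 14D stood between 0.29 and 0.65. The deposited relative expression lists replicate 3 of 14D at 1.44 times C, in place of 0.688 from ΔCt.

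TIMP-2 mRNA in 14D was 2.94 times the level of 3D (1.56 in log2, SE 0.39, 6 and 5 rats, limma adjusted p = 0.0145, exact p = 0.00649) and in 28D it was 3.01 times that level (1.59, SE 0.39, 6 and 5 rats, limma adjusted p = 0.0145, exact p = 0.00216). Both rises passed in all 22 leave-outs, with log2 differences of 1.16 to 1.74 and 1.20 to 1.76. TIMP-2 stood 0.85 above the median gene in 14D and 0.52 above it in 28D, and with the target genes' average as reference the differences were 0.89 (limma adjusted p = 0.115) and 0.63 (limma adjusted p = 0.310), which did not pass. On minus Ct without a reference gene they were 2.63 and 0.94 cycles (limma adjusted p = 0.254 and 0.639), which did not pass either.

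In 3D the mean of TIMP-2 was 2.28-fold below that of C (log2 difference -1.19, SE 0.43, 5 and 4 rats, limma adjusted p = 0.0786), which did not pass. The groups did not overlap (exact p = 0.0238), as in 2 of the 22 genes (9.09%), while 1 gene of 22 (4.55%), COL1A1, passed in this comparison. Replicate 2 of 3D, at -2.76, carried part of the size, and without it the difference was -0.80 (limma adjusted p = 0.166). Without replicate 4 of 3D it passed at -1.35 (limma adjusted p = 0.0460), and with the filled-in values kept it passed as well (limma adjusted p = 0.0463). With the target genes' average as reference it was -0.60 (limma adjusted p = 0.389). The 14D and 28D means stood 0.36 and 0.40 above C (SE 0.41 for each, 6 and 4 rats, limma adjusted p = 0.652 and 0.621), with 95% intervals of -0.49 to 1.22 and -0.45 to 1.25. None of the 22 genes passed between 14D and C (0%) or between 28D and C (0%), and 1 and 0 genes had an unadjusted limma p under 0.05 in these comparisons. Non-overlap was found in 0% and 9.09% of the genes. Between 28D and 14D, where 0% passed, 0% did not overlap and 2 genes had an unadjusted p under 0.05, TIMP-2 differed by 0.03 (95% interval -0.73 to 0.80).

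**Figure D2:**
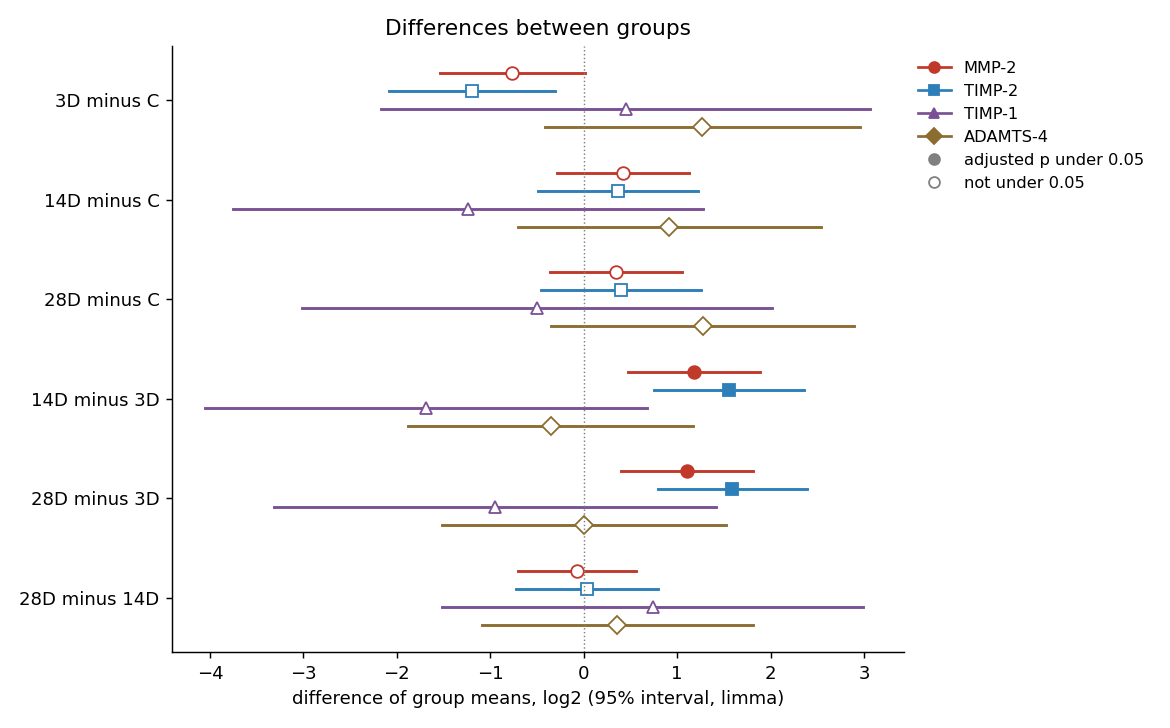
Difference of group means for each pair of groups and each of the 4 genes, in log2, with its 95% interval from limma (filled symbols, adjusted p under 0.05). MMP-2 and TIMP-2 have filled symbols for 14D minus 3D (1.18 and 1.56) and 28D minus 3D (1.11 and 1.59), and the intervals of TIMP-1 are the widest, from -4.05 to 0.67 for 14D minus 3D.

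The rise of TIMP-2 was not distinguishable from that of MMP-2. This was examined as the Ct of TIMP-2 minus the Ct of MMP-2 in the same animal, which uses no reference gene and is higher where there is more MMP-2 mRNA relative to TIMP-2 mRNA. Since 2 assays can differ in efficiency, such a difference was compared between animals and not read as a ratio of molecules. It was -1.70, -0.61, -1.01 and -0.30 in replicates 1, 2, 3 and 5 of C and -0.47, 0.59, -0.55 and -1.10 in replicates 1, 2, 4 and 5 of 3D. In 14D it ran from -1.39 through -1.0 to 0.17 and in 28D from -1.42 through -0.94 to -0.50. All 4 groups overlapped, and the animal with the lowest TIMP-2, replicate 2 of 3D, had the highest value.

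This balance averaged -0.90 ± 0.60 (SD, 4 rats) in C and -0.38 ± 0.70 (SD, 4 rats) in 3D. In 14D it averaged -0.85 ± 0.59 (SD, 6 rats) and in 28D -0.96 ± 0.34 (SD, 6 rats). In 3D it was 0.52 above C (SE 0.46, limma adjusted p = 0.598 over 1386 tests of 231 gene pairs, exact p = 0.371), and without replicate 2 of 3D it was 0.20 above C. The 14D mean was 0.47 below 3D (95% interval -1.34 to 0.40) and the 28D mean 0.58 below it (95% interval -1.45 to 0.30), and without replicate 2 of 3D these differences were -0.15 and -0.25. Relative to C the differences were 0.05 in 14D (95% interval -0.82 to 0.92) and -0.05 in 28D (95% interval -0.93 to 0.82), and their sign turned when single animals were left out. The intervals against C thus reach to almost 2-fold in either direction. With a pooled SD of 0.55 cycles this balance was rank 19 from the smallest among the 231 gene pairs of the panel, whose median SD was 1.04.

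**Figure D3:**
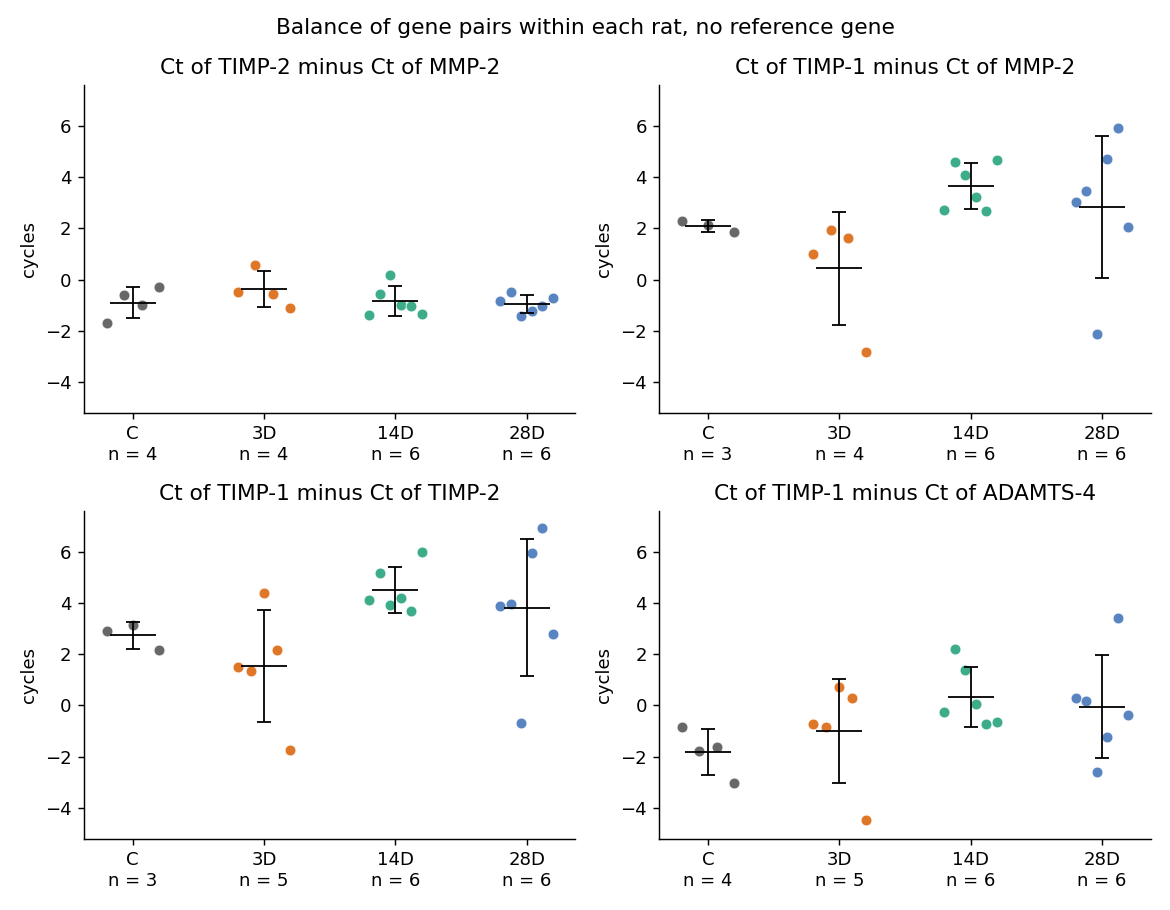
Ct difference of 2 genes within each rat, in cycles, for TIMP-2 minus MMP-2, TIMP-1 minus MMP-2, TIMP-1 minus TIMP-2 and TIMP-1 minus ADAMTS-4 (points, 1 rat each; bars, mean ± SD; the same vertical scale in all panels). The values of TIMP-2 minus MMP-2 lie between -1.70 and 0.59, while TIMP-1 minus MMP-2 reaches from -2.83 to 5.90, with replicate 5 of 3D and replicate 3 of 28D as the 2 lowest animals.

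TIMP-1, the more inducible of the 2 inhibitors, lay on chromosome X (3766509 to 3772578). The upstream sequences of the 2 inhibitor genes are shown as the regulatory sequence of the one that passed from 3D and of the one that passed in no comparison. They are the 250 bases before the start site in the RefSeq annotation of GRCr8, on the minus strand of chrX:3771123-3771372 for Timp1, a start that lies inside the annotated span of the gene, and of chr10:104089215-104089464 for Timp2, with motif matches in capitals.
Timp1: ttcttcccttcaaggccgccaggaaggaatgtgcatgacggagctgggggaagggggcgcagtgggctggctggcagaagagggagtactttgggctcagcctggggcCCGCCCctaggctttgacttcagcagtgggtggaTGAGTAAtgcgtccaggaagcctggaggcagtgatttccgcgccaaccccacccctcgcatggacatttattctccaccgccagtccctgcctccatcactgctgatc
Timp2: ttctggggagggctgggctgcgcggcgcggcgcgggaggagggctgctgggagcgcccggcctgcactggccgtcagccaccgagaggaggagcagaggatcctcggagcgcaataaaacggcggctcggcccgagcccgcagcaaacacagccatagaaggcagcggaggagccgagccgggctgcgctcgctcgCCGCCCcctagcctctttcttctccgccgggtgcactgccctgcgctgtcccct
Both strands were searched for the GC box GGGCGG, the AP-1 motif TGANTCA, the AP-1 variant TGAGTAA, known from human and mouse TIMP-1, and the TATA box TATAAA, none of which overlapped another here. The Timp1 sequence held 1 GC box and 1 TGAGTAA, which begins 108 bases before the start, and had a GC content of 61.2%. The Timp2 sequence held 1 GC box, 54 bases before the start, with a GC content of 72% and 27 CpG dinucleotides against 9 in Timp1. The window of Adamts4 held none of the 4 motifs and had a GC content of 51.2%. Of 33469 promoter windows of that length, 30.5% held GGGCGG, 6.34% TGANTCA, 2.38% TGAGTAA and 12.9% TATAAA. Such matches are descriptions of the sequence, and factor binding was not measured.

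Log2 expression of TIMP-1 in C was -0.20, -0.38, -0.19 and 0.76 in replicates 2 to 5. In 3D it was 0.13, -1.21, -2.30, 0.17 and 5.47 in replicates 1 to 5. In 14D it ran from -2.45 through a median of -1.22 to -0.21, and in 28D from -3.44 through -0.96 to 4.33. A pair of animals stood far above all others, replicate 5 of 3D at 5.47 and replicate 3 of 28D at 4.33, and the next highest of the 21 animals was at 0.76. With its own RPLP0 Ct replicate 5 of 3D was at 4.13.

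No comparison of TIMP-1 passed. Its mean stood at 0.45 in 3D (SE 1.26, 5 and 4 rats, limma adjusted p = 0.894), at -1.24 in 14D (SE 1.21, 6 and 4 rats, limma adjusted p = 0.593) and at -0.50 in 28D (SE 1.21, 6 and 4 rats, limma adjusted p = 0.870) relative to C. Of the 6 rats of 14D, 5 were under the lowest of C (exact p = 0.0238). Without replicate 5 of 3D and replicate 3 of 28D the differences from C were -0.80 in 3D (limma adjusted p = 0.456), -1.24 in 14D (limma adjusted p = 0.195) and -1.46 in 28D (limma adjusted p = 0.137), so that the sign in 3D turned and none passed. Against 3D the differences were -1.69 in 14D (95% interval -4.05 to 0.67) and -0.95 in 28D (95% interval -3.31 to 1.41), and between 28D and 14D it was 0.74 (95% interval -1.51 to 2.99). Without replicate 5 of 3D the difference between 14D and 3D was -0.43 and that between 28D and 3D turned to 0.31.

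The deposited table of relative expression does not hold the same TIMP-1 values. Replicate 3 of 28D is listed there at 0.232 times C and replicate 4 at 0.0974, which are the values that the ΔCt table gives for replicates 4 and 5, in place of 21.2 and 0.232. Replicate 5 is listed at 0.131, replicate 6 is blank and so is replicate 5 of 3D. With that table TIMP-1 in 28D stood at -2.11 in log2 against C and passed (limma adjusted p = 0.0277). For ADAMTS-4 the same shift was seen in replicates 3 and 4 of 28D, listed at 0.352 and 3.66 in place of 12.5 and 0.352. Replicate 6 of 28D is blank in place of 3.38. Replicate 5 of 28D is listed at 0.102 in place of 3.66, and 0.102 matches no other animal of 28D. In 14D, TIMP-2 in replicate 3 is listed at 1.44 in place of 0.688. MMP-2 in replicates 2 and 3 of 14D is listed at 1.33 and 1.20 in place of 2.01 and 1.45. Which of the tables is right was not tested.

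TIMP-1 was then set against MMP-2 in the same animal. The Ct of TIMP-1 minus the Ct of MMP-2, higher where there is more MMP-2 relative to TIMP-1, was 2.29, 2.15 and 1.85 in replicates 2, 3 and 5 of C. In 3D it was 1.01, 1.94, 1.62 and -2.83 in replicates 1, 2, 4 and 5. All 6 animals of 14D lay above these, from 2.67 through a median of 3.65 to 4.66, and those of 28D ran from -2.11 through 3.26 to 5.90. The difference between 14D and 3D was 3.22 cycles (SE 1.15, 6 and 4 rats, limma adjusted p = 0.157, exact p = 0.00476), that between 14D and C 1.56 cycles (SE 1.26, 6 and 3 rats, limma adjusted p = 0.573, exact p = 0.0238), and neither passed. Between 28D and 3D the difference was 2.41 cycles (SE 1.15, 6 and 4 rats, limma adjusted p = 0.273, exact p = 0.181), which did not pass. Without replicate 5 of 3D the difference between 14D and 3D was 2.13 and that between 28D and 3D was 1.32.

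The 2 inhibitors were also set against each other, as the Ct of TIMP-1 minus that of TIMP-2, higher where there is more TIMP-2. It was 2.89, 3.15 and 2.15 in replicates 2, 3 and 5 of C and 1.48, 1.35, 4.38, 2.17 and -1.73 in replicates 1 to 5 of 3D. In 14D it ran from 3.69 through 4.15 to 6.0, above all 3 animals of C, and in 28D from -0.70 through 3.92 to 6.94. Between 14D and 3D it differed by 2.97 cycles (SE 1.07, 6 and 5 rats, limma adjusted p = 0.157, exact p = 0.0108) and between 28D and 3D by 2.27 (SE 1.07, limma adjusted p = 0.262), so that a difference between the courses of TIMP-1 and TIMP-2 did not pass. Without replicate 3 of 28D, TIMP-1 minus MMP-2 passed at 3.22 between 14D and 3D (limma adjusted p = 0.0364) and at 3.40 between 28D and 3D (limma adjusted p = 0.0360), and TIMP-1 minus TIMP-2 at 2.97 (limma adjusted p = 0.0498) and 3.17 (limma adjusted p = 0.0479). With replicate 5 of 3D left out as well, these were 2.13, 2.31, 2.16 and 2.36 (limma adjusted p = 0.104, 0.0877, 0.111 and 0.104), and none passed.

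None of the 6 pairs that can be formed from the 4 genes passed in any comparison, against 1.3% of the 231 gene pairs between 3D and C, 5.63% between 14D and 3D and 1.3% between 28D and 3D, and 0% between 14D and C and between 28D and C, where 25 and 41 gene pairs had an unadjusted limma p under 0.05. Between 28D and 14D 2.6% passed. Groups did not overlap for 15.6%, 15.6%, 7.79%, 4.33% and 5.19% of the gene pairs in the first 5 of these comparisons, in that order, and for 1.3% between 28D and 14D. Among the 6 pairs there were 2 such cases between 3D and C, 1 between 14D and 3D, 0 between 28D and 3D, 3 between 14D and C, 0 between 28D and C and 0 between 28D and 14D. Gene pairs share genes and are not independent of each other. Between 14D and 3D, 3 pairs of one of the 4 genes with another gene of the panel passed, out of 13 among all 231 gene pairs (5.63%). COL1A1, a chain of type I collagen, gained 2.22 cycles on MMP-2 (SE 0.49, limma adjusted p = 0.0202) and 5.43 cycles on TIMP-1 (SE 1.34, limma adjusted p = 0.0416), and TNC, tenascin C, gained 2.76 on TIMP-1 (SE 0.70, limma adjusted p = 0.0437). Both pairs with TIMP-1 include replicate 5 of 3D, which had the earliest TIMP-1 Ct (26.1), and they are not given without it.

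ADAMTS-4, the aggrecanase, lay on chromosome 13 (86203011 to 86212500) with a median Ct of 31.6 over the animals. It was 31.6 for TIMP-1, 28.5 for MMP-2 and 27.2 for TIMP-2, and since Ct values of different assays are not on one scale no order of levels was read from them. Log2 expression in C was 0.77, -0.34, -0.0033 and -0.42 in replicates 2 to 5. In 3D it was 1.22, -0.22, 0.25, 2.26 and 2.83 in replicates 1 to 5. In 14D it ran from -1.26 through a median of 1.01 to 2.41, and in 28D from -1.59 through 1.40 to 3.56. Of the animals after the lesion, 12 of 17 lay above all 4 of C and 2 lay below all of them, replicate 6 of 14D and replicate 4 of 28D.

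The means of ADAMTS-4 relative to C were 1.27 in 3D (SE 0.81, 5 and 4 rats, limma adjusted p = 0.374, exact p = 0.127), 0.91 in 14D (SE 0.78, 6 and 4 rats, limma adjusted p = 0.519, exact p = 0.210) and 1.27 in 28D (SE 0.78, 6 and 4 rats, limma adjusted p = 0.345, exact p = 0.190). None passed, and the 95% intervals were -0.42 to 2.95, -0.71 to 2.53 and -0.35 to 2.89. Among the 22 genes 3D minus C was positive for 3, and ADAMTS-4 had the highest value, 2.04 above the median gene, which stood at -0.77. The 3D mean rested in part on replicate 5, which was at 1.49 with its own RPLP0 Ct, and without that animal the difference was 0.88. Without replicate 4 of 28D, the lowest animal, the difference between 28D and C was 1.85 (limma adjusted p = 0.0773), and without replicate 3 of 28D it was 0.82. Between the groups after the lesion the differences were small against their errors, -0.35 for 14D minus 3D (95% interval -1.88 to 1.17), 0.01 for 28D minus 3D (95% interval -1.51 to 1.53) and 0.36 for 28D minus 14D (95% interval -1.09 to 1.81).

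ADAMTS-4 was also set against both genes of the quiet pair, without a reference gene. The Ct of TIMP-2 minus the Ct of ADAMTS-4, higher where there is more ADAMTS-4, was -3.74, -4.94 and -5.16 in replicates 2, 3 and 5 of C and -2.21, -2.19, -3.65, -1.90 and -2.73 in replicates 1 to 5 of 3D, with no overlap, as in 15.6% of the 231 gene pairs. The difference was 2.08 cycles (SE 0.93, 5 and 3 rats, limma adjusted p = 0.239, exact p = 0.0179, the smallest that 5 and 3 rats allow), which did not pass. In replicate 2 of 3D both Ct values were above 35, and with Ct values above 35 left out the difference was 1.99 (limma adjusted p = 0.334). ADAMTS-4 minus MMP-2, lower where there is more ADAMTS-4, was 3.14, 3.94 and 4.86 in C and 1.75, 2.77, 1.36 and 1.64 in 3D, a difference of -2.10 (SE 0.91, 4 and 3 rats, limma adjusted p = 0.228, exact p = 0.0286). In 14D and 28D these 2 balances overlapped C, with differences of 0.43 and 0.76 for TIMP-2 minus ADAMTS-4 and of -0.65 and -1.08 for ADAMTS-4 minus MMP-2. These rested on single animals. In 28D they were 0.37 and -0.60 without replicate 3 of 28D and 1.42 and -1.69 without replicate 4 of 28D. In 14D the former ran from 0.10 without replicate 3 of 14D to 0.92 without replicate 6 of 14D, and the latter from -1.07 without replicate 2 of C to -0.21 without replicate 5 of C.

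TIMP-1 was also set against ADAMTS-4. The Ct of TIMP-1 minus that of ADAMTS-4 was -0.85, -1.79, -1.64 and -3.01 in replicates 2 to 5 of C and -0.73, -0.83, 0.73, 0.27 and -4.46 in replicates 1 to 5 of 3D. It ran from -0.74 through -0.12 to 2.19 in 14D, above all 4 animals of C, and from -2.59 through -0.09 to 3.41 in 28D. The 14D mean was 2.15 cycles above C (SE 0.99, 6 and 4 rats, limma adjusted p = 0.253, exact p = 0.00952) and the 28D mean 1.77 above it (SE 0.99, limma adjusted p = 0.366, exact p = 0.124), or 2.28 without replicate 3 of 28D and 1.08 without replicate 5 of 28D, and neither passed. In 3D the difference from C was 0.82 (SE 1.03, 5 and 4 rats, limma adjusted p = 0.721) and 1.68 without replicate 5 of 3D (4 and 4 rats).

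The 2 pairs also differed in which genes of the panel they most resembled, measured by Pearson's r of log2 expression over the animals in which both genes were measured, as a description. In most animals the log2 values share 1 RPLP0 Ct, and group differences enter r unless it is taken within groups. Replicate 5 of 3D is an exception. There TIMP-1, ADAMTS-4, TNC, ERG1, MKX, TNMD and SDC-4 use an RPLP0 Ct of 28.5, and TIMP-2, MMP-2, TGF-β1 and DCN use 27.1. The r of TIMP-2 or MMP-2 with MKX thus mixes 2 references in that rat. Values of r with its own RPLP0 Ct for all genes are not given. TIMP-2 was most like MKX, the tendon transcription factor mohawk (r = 0.92, n = 21, within groups 0.87), and TGF-β1 (r = 0.84, n = 20, within groups 0.78). Replicate 2 of 3D, the animal with the latest RPLP0 Ct, was the lowest in TIMP-2, MKX and TGF-β1, at -2.76, -3.43 and -2.95. It was also the lowest in MMP-2 and DCN, and how far these r values rest on it was not tested. MMP-2 was most like DCN, the proteoglycan decorin (r = 0.84, n = 20, within groups 0.69), and MKX (r = 0.83, n = 20, within groups 0.67), and within groups most like TNMD (0.79) and SDC-4 (0.77). In replicate 1 of C the Ct of DCN, 30.12, equals that of BGN in the same rat. Its ΔCt implies an RPLP0 Ct of 30.14, although that rat's own was 26.94. This DCN value was kept in log2 expression and r, but left out of the Ct differences. Between MMP-2 and TIMP-2 themselves r was 0.76 (n = 20), and 0.38 within groups, so that it came in part from the group means.

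ADAMTS-4 was most like TNC, a matricellular glycoprotein (r = 0.72, n = 21, within groups 0.81), and ERG1, the panel's name for Egr1 (r = 0.63, n = 21, within groups 0.76). For TIMP-1 the highest values were with TNC (r = 0.61, n = 21, within groups 0.83) and ADAMTS-4 (r = 0.54, n = 21, within groups 0.62). The likeness of TIMP-1 rested on 2 animals, since without replicate 5 of 3D and replicate 3 of 28D r was -0.02 with TNC and 0.13 with ADAMTS-4 (n = 19 for each). That of ADAMTS-4 with TNC and ERG1 was then 0.53 and 0.48 (n = 19 for each). TIMP-1, TNC, ADAMTS-4 and ERG1 were also the 4 genes with an earlier Ct in replicate 3 of 28D than in replicate 4. Replicate 4 of 28D was kept, the lowest of 28D in ADAMTS-4, TNC and ERG1 at -1.59, -0.62 and -1.33. How far the likeness of ADAMTS-4 rests on it was not tested. For TIMP-2 with MKX it was 0.92 (n = 19), but the 2 animals left out were not extreme in TIMP-2 (-0.51 and 0.72). Replicate 2 of 3D, the lowest in TIMP-2 and MKX, was kept. ADAMTS-4 with TIMP-2 and MMP-2 gave r = 0.07 (n = 20) and 0.03 (n = 19).

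**Figure D4:**
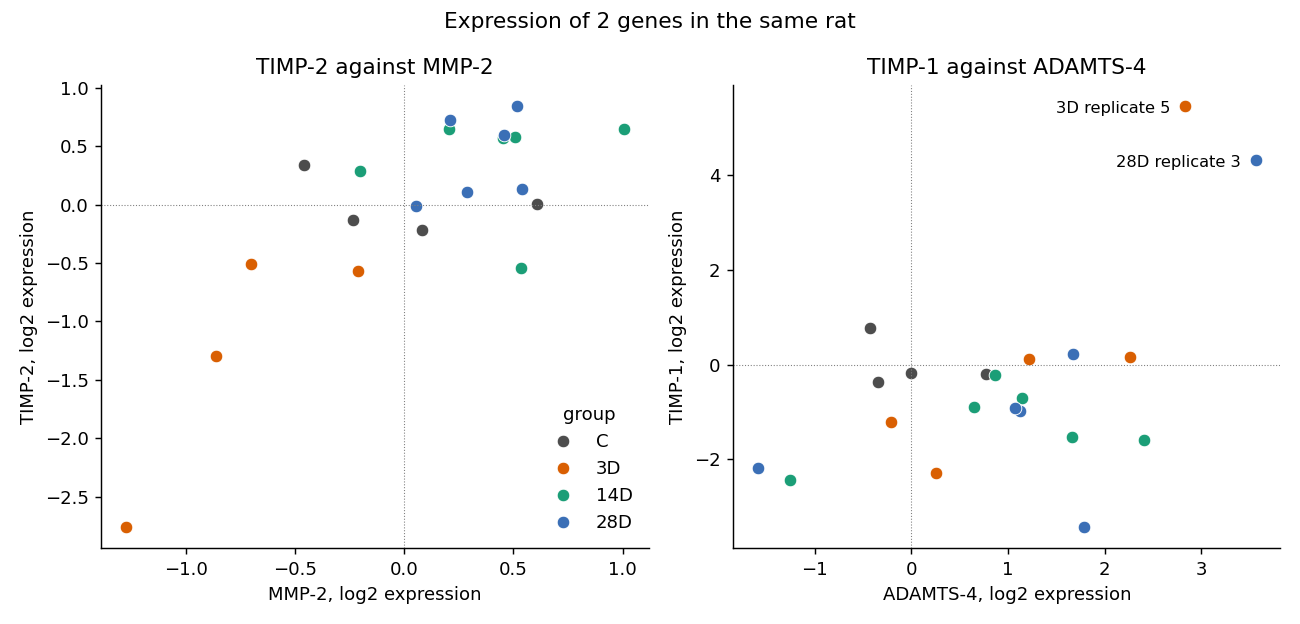
Log2 expression of TIMP-2 against MMP-2 (left) and of TIMP-1 against ADAMTS-4 (right), 1 point per rat, coloured by group. On the left the 3D rats lie at the lower left and r is 0.76 (n = 20), and on the right r is 0.54 (n = 21) and 0.13 without the 2 labelled rats.

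Of the genes around this system in the panel, 7 encode matrix proteins that such proteases can cleave. In 3D 1 of these 7 fell against C, where 4.55% of the 22 genes passed, namely COL1A1 (log2 difference -2.74, SE 0.61, limma adjusted p = 0.0117), and 0 of 7 were above C in mean, with a median difference of -1.11 against -0.77 over all 22 genes. From 3D to 14D 3 of 7 rose, against 27.3% of the 22 genes, namely COL1A1 (3.39, limma adjusted p = 0.000530), DCN (1.91, limma adjusted p = 0.0403) and FN, fibronectin (1.77, limma adjusted p = 0.0226), with a median of 1.08 against 0.71. From 3D to 28D, where 31.8% passed, the same 3 rose, by 2.0, 2.32 and 1.63 (limma adjusted p = 0.0262, 0.0177 and 0.0291), with a median of 1.63 against 1.07. COL3A1, BGN, FMOD and TNC did not pass in these comparisons.

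Of 4 signalling genes that act on the transcription of proteases and inhibitors, TGF-β1, SMAD-2, SMAD-3 and IL-6, 0 passed in any of the 6 comparisons. Their median differences were -0.50 in 3D against C, 0.62 in 14D against 3D and 0.82 in 28D against 3D. For IL-6 only 2 rats of 3D were used, with Ct values of 34.8 and 35.2, and its Ct in 28D reached 38.3. Its comparisons with 3D thus say little. Among the 4 proteases and inhibitors 2 of 4 passed in 14D against 3D, where 27.3% of the 22 genes did, and 2 of 4 in 28D against 3D, where 31.8% did, with medians of 0.41 and 0.56. These medians join a rise of MMP-2 and TIMP-2 with values of TIMP-1 and ADAMTS-4 at or below 0.01, and TIMP-1 had the lowest value of the 22 genes in both.

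**Figure D5:**
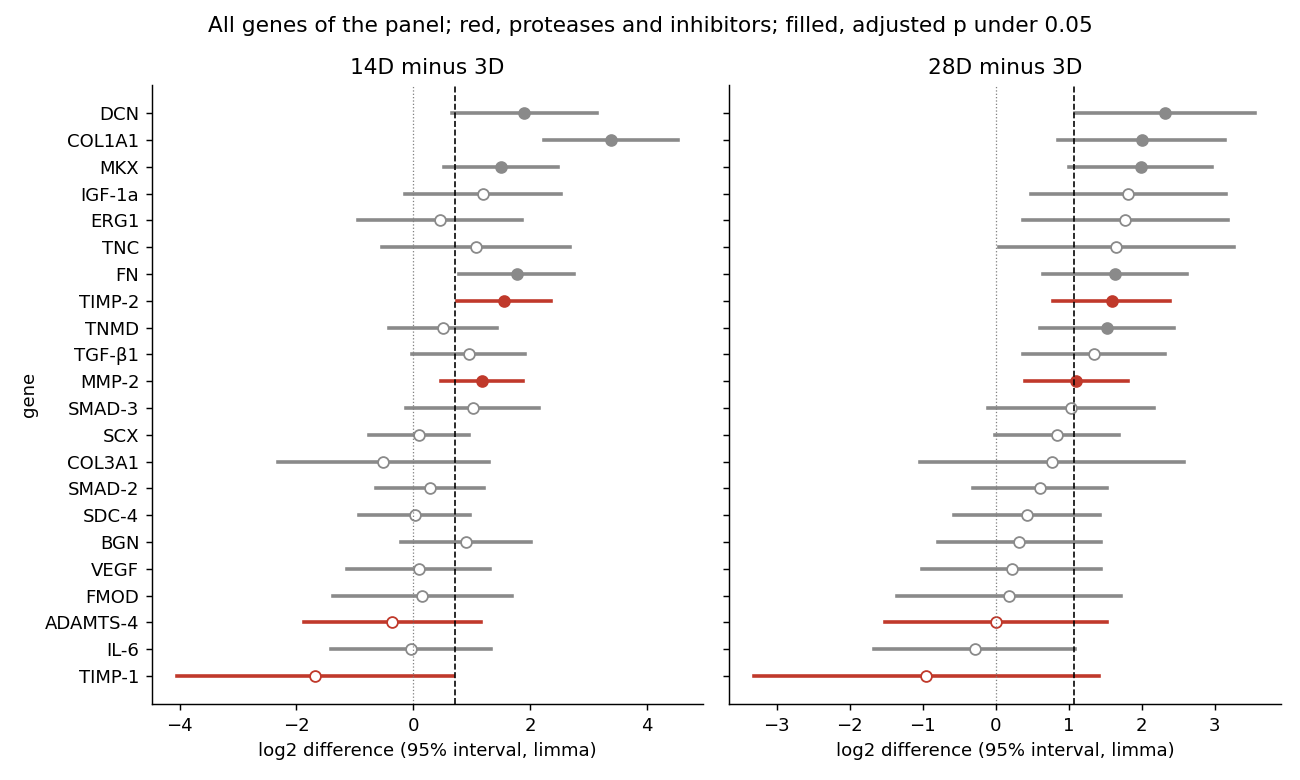
Difference of group means in log2 with its 95% interval for all 22 genes, 14D minus 3D (left) and 28D minus 3D (right), with the 4 proteases and inhibitors in red, filled symbols where the adjusted p was under 0.05 and a dashed line at the median gene (0.71 and 1.07). TIMP-2 (1.56 and 1.59) lies above that line in both panels, MMP-2 at 1.18 and 1.11 above or on it, and TIMP-1 (-1.69 and -0.95) is the lowest gene in both.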

How the data were processed

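RNA of whole calcaneal tendon was measured by TaqMan qRT-PCR in 22 animals, grouped by the labels as C, 3D, 14D and 28D. The study's methods state a larger number of rats than the 22 labelled here, which were all used. Per the methods, RNA was extracted with TRIzol and run in duplicate on a QuantStudio 3. The authors deposited a table of Ct values (cycles, a log2 scale), a table of ΔCt, which is Ct minus the Ct of RPLP0 (log2), and a table of relative expression, a fold ratio to C. Column names matched the labels one to one. Of the 484 values of the deposited fold ratio, 442 lay within 0.1 in log2 of the ΔCt table, 30 did not and 12 were blank. In 6 animals the ΔCt table holds more than 1 RPLP0 Ct. In the Ct table or the ΔCt table, 22 values equalled the average of their group mates within 1e-06 and were left out. A further 2 were blank in either table, and 460 were used. The spread of the duplicates was not given in the sources used here, so that errors are the spread between single rats, and the number of rats limits the precision.

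Log2 expression was minus the deposited ΔCt, centred on C. Tests between groups used limma 3.58.1 under R 4.3.3 (lmFit, eBayes), all 4 groups in 1 model and all 22 genes in 1 fit, with Benjamini-Hochberg adjustment over 132 tests of genes, or over 1386 tests of the Ct differences of 231 gene pairs, and a threshold of 0.05. Exact two-sided permutation tests of the animals stand beside it, and intervals are 95% intervals from limma. The fit was tested on simulated data. Named genes were the 4 proteases and inhibitors, for each the 2 genes of highest Pearson r, and the genes of 2 lists that passed, and COL1A1 and TNC beside them in gene pairs that passed. These genes and lists were chosen with earlier results of these data known. Alternatives changed the reference gene, the filled-in values, late Ct values, the table, the scale, the test, the block and the animals. Gene symbols, coordinates and upstream sequences came from RefSeq tables of GRCr8, in which all 22 symbols and 3 of the 4 promoters were found.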

Additional observations from a re-analysis of the deposited data

Results flagged for a closer look

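In groups of 4 to 10 animals, the gap between the most extreme animal and the next was set against the range of the group (Dixon's 95% value), over 30 groups of the 4 genes and their Ct differences, and chance alone marks about 1 in 20 such groups. It marked 2. TIMP-1 in replicate 5 of C stood at 0.76 in log2 expression, above the other 3 measured animals of C, with a gap of 0.837 of the range. TIMP-2 in replicate 3 of 14D stood at -0.54, below the other 5 animals of 14D, with a gap of 0.696 of the range. The deposited relative expression lists this value at 1.44 times C, in place of 0.688 from ΔCt. The 2 animals with the highest TIMP-1, in 3D and 28D, were not among those marked by this measure in their groups.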

How the results depend on the processing

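Log2 differences are given as group minus group. Those on Ct alone were taken on minus Ct, so that a positive value stands for more mRNA in the first group. On Ct alone MMP-2 was -0.28 (14D minus C), -2.07 (28D minus C), 2.77 (14D minus 3D) and 0.97 (28D minus 3D), TIMP-1 -0.66 (3D minus C) and -0.98 (28D minus 14D), TIMP-2 -0.33 (14D minus C), -2.01 (28D minus C), 2.63 (14D minus 3D), 0.94 (28D minus 3D) and -1.68 (28D minus 14D), and ADAMTS-4 -0.22 (28D minus C), 0.985 (14D minus 3D), -0.37 (28D minus 3D) and -1.36 (28D minus 14D). With the target genes' average as reference MMP-2 was -0.14 (3D minus C), -0.0248 (28D minus C), 0.49 (14D minus 3D) and 0.12 (28D minus 3D), TIMP-2 -0.60 (3D minus C), 0.89 (14D minus 3D), 0.63 (28D minus 3D) and -0.26 (28D minus 14D), and ADAMTS-4 -0.95 (28D minus 3D). The rises of MMP-2 (1.18 and 1.11) and TIMP-2 (1.56 and 1.59) kept their size but no longer passed when limma used only the groups compared (limma adjusted p from 0.0988 to 0.143) or when exact p-values were adjusted (0.0786 to 0.0952). On linear values MMP-2 differed by 0.668 (28D minus 3D, limma adjusted p = 0.0662) and TIMP-1 by 2.71 (28D minus C).

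With the deposited fold ratio table MMP-2 was 0.0710 (28D minus 14D), TIMP-1 -0.80 (3D minus C), -2.11 (28D minus C, passed) and -0.87 (28D minus 14D), TIMP-2 -0.13 (28D minus 14D), and ADAMTS-4 -0.195 (28D minus C), -1.46 (28D minus 3D) and -1.11 (28D minus 14D). With Ct above 35 missing TIMP-1 was 0.0897 (28D minus C) and ADAMTS-4 -0.365 (28D minus 3D). With all deposited values TIMP-2 passed at -1.19 (3D minus C), as it did with least squares and Bonferroni (adjusted p = 0.0344), while the Ct differences TIMP-2 minus MMP-2 were -0.0854 (3D against C), 0.14 (14D against 3D) and 0.0305 (28D against 3D), TIMP-1 minus MMP-2 -0.0794 and TIMP-1 minus TIMP-2 -0.0246 (28D against C for each). Without replicate 5 of 3D and replicate 3 of 28D, a setting chosen after seeing the data, MMP-2 was 1.20 (14D minus 3D, limma adjusted p = 0.0607) and 1.15 (28D minus 3D, limma adjusted p = 0.0908), TIMP-1 -0.80 (3D minus C) and -0.23 (28D minus 14D), TIMP-2 -0.0311 (28D minus 14D), ADAMTS-4 0.0355 (14D minus 3D), -0.0616 (28D minus 3D) and -0.10 (28D minus 14D), and TIMP-2 minus MMP-2 0.0369 (28D against C).

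Replicate numbers are shared by groups, but of 31 pairs of animals with the same number only 9 had a correlation of deviations over 0.1 (median -0.09), and 2 of 22 animals correlated best with their own number, so that they share only a number. With the replicate block TIMP-2 minus MMP-2 was 0.0249 (28D against C), no call of the 4 genes changed, and the genes of the panel that passed went from 6 to 5 (14D minus 3D) and from 7 to 6 (28D minus 3D).

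Leaving out 1 animal at a time gave ranges of 1.01 to 1.36 and 0.94 to 1.29 for MMP-2 (14D and 28D minus 3D) and -0.20 to 0.0452 (28D minus 14D), and for TIMP-1 -0.80 to 1.14 (3D minus C), -1.46 to 0.0897 (28D minus C), -1.91 to 0.31 (28D minus 3D) and -0.23 to 1.33 (28D minus 14D). For TIMP-2 they were -1.36 to -0.80 (3D minus C) and -0.15 to 0.12 (28D minus 14D), for ADAMTS-4 -0.73 to 0.0789 (14D minus 3D), -0.45 to 0.58 (28D minus 3D) and -0.10 to 0.93 (28D minus 14D), and for TIMP-2 minus MMP-2 -0.21 to 0.25 (14D against C), -0.32 to 0.15 (28D against C), -0.71 to -0.15 (14D against 3D) and -0.81 to -0.25 (28D against 3D). The sign of TIMP-1 turned without replicate 5 of 3D (3D minus C, 28D minus 3D), replicate 5 of 28D (28D minus C) or replicate 3 of 28D (28D minus 14D).

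The panel's 6 genes that passed for 14D minus 3D became 1 on Ct alone, 1 with the target genes' average, 1 with only the groups compared, 2 on linear values and 0 with adjusted exact p. The 7 for 28D minus 3D became 0, 0, 0, 4 and 0. The 1 for 3D minus C became 3 with all deposited values, 2 with 1 RPLP0 Ct per animal, 2 with least squares, and 0 on linear values, with Dunn's procedure or with adjusted exact p. That 1 gene, COL1A1, had 4 and 4 rats, where the exact p cannot fall below 0.0286. The counts of 0 with adjusted exact p thus say little. Counts of 0 became 1 with the fold ratio table (28D minus C, 28D minus 14D), the target genes' average (28D minus 14D) or both animals left out (14D minus C). Leaving out 1 animal, the counts ran from 1 to 3 (3D minus C), 2 to 6 (14D minus 3D) and 2 to 9 (28D minus 3D). In all, 260 of 312 values of the 4 genes and 203 of 210 of their balances kept direction and call under the other settings. Only the rises of MMP-2 and TIMP-2 from 3D had passed at first, and no balance had. The other results had no call to lose, so that these totals say little about the rises. Of the 312 values, 19 lost a call, all of them among these rises, 30 turned sign and 3 gained a call. The lost calls include those with adjusted exact p, which the number of rats limits. The cause of the changes was not tested. Precision was limited by the late Ct values and the few animals per group, 4 to 6 for the 4 genes and 3 to 6 for their balances.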
